A study of Homo sapiens with 2 samples.

Results

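The genes described here encode the SR proteins and the heterogeneous nuclear ribonucleoproteins (hnRNPs), the general RNA-binding regulators of splicing. They were chosen by symbol among the protein-coding genes of the deposited gene table: SRSF genes, TRA2A and TRA2B, HNRNP genes and PTBP1 to PTBP3. The rule found 43 of the 62700 genes in the table, namely 12 SRSF, 2 TRA2, 26 HNRNP and 3 PTBP genes. The RNA came from TCam-2, an established line of human testicular cancer of the seminoma type, transduced with a DDX53-FLAG construct. The construct was meant to overexpress DDX53, which encodes an RNA helicase of the DEAD-box family. The series holds 1 group of 2 replicate libraries of polyadenylated RNA, and nothing in the labels says whether they came from separate cultures or transductions. Its GFP-FLAG and untransduced WT controls are part of another series and were not analysed here, so no effect of DDX53 was computed.

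SR proteins bind exonic enhancers through RNA recognition motifs and recruit the splicing machinery through domains rich in arginine and serine, which SRPK and CLK kinases phosphorylate. The hnRNPs coat nascent transcripts and often repress the exons near which they bind, and PTBP1 represses exons next to pyrimidine-rich tracts. Many genes of both groups can splice their own transcripts into forms with an early stop codon, through a "poison" exon. Other forms keep the usual stop and gain an exon junction after it, through an intron of the 3′ UTR. Both kinds of form can be substrates of nonsense-mediated decay. In the tables used here, that process can be read only as the share of a gene's TPM (a level per transcript length) that falls on transcripts annotated as nonsense-mediated decay or as retained intron.

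The coding ends of 6 nonsense-mediated-decay transcripts show how differently they reach their stop codon. Each sequence runs 5′ to 3′ in the sense of the transcript, ends in the stop codon in capitals and comes from the GENCODE 29 transcripts on GRCh38. The first 3 and the last each lie within 1 exon and are all of that exon's coding bases up to the stop:
TRA2B-206: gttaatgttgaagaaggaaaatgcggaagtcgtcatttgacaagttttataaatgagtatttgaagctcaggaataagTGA
SRSF6-202: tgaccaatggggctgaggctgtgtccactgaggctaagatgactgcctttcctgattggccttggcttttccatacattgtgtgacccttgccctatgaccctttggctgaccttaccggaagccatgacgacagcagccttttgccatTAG
SRSF1-206: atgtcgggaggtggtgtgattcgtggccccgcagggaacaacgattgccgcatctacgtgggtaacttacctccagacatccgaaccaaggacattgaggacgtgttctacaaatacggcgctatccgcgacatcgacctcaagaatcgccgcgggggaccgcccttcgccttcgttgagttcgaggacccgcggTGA
HNRNPLL-201: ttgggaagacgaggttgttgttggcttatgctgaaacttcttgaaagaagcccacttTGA
HNRNPA1-205: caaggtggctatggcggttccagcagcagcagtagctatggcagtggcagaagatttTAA
HNRNPA2B1-203: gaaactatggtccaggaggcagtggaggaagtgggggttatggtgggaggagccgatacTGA

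The TRA2B stretch is the start of a 276-nt exon at chr3:185931577-185931852 on the minus strand, and the stop ends 81 bases into it. The SRSF6 stretch is the start of a 268-nt exon at chr20:43459153-43459420 on the plus strand, with the stop ending 152 bases in. The HNRNPLL stretch has its last 47 bases in an 83-nt exon at chr2:38577920-38578002 on the minus strand. These 3 exons overlapped no exon of the gene's longest coding transcript and hold the stop codon, which is the layout of a poison exon. The TRA2B stop and part of its exon are also annotated in TRA2B-202, a short coding model. HNRNPLL-201 has no annotated start codon, so its stop rests on a model incomplete at the 5′ end. In SRSF1-206 the 198 coding bases, stop included, all lie in the first exon, at chr17:58006907-58007261 on the minus strand.

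HNRNPA1-205 and HNRNPA2B1-203 have another layout. The HNRNPA1-205 stop is also the stop of HNRNPA1-201, the leading coding transcript, and of 4 other coding transcripts. Its decay label came with 2 further exons after the stop, at chr12:54286662-54286732 and chr12:54286953-54287088, which overlap none of the longest coding transcript's exons and put the last exon junction 75 nt after the stop. HNRNPA2B1-203 encodes 353 residues, ends at a stop shared with 3 coding transcripts and has its last junction 157 nt after that stop. The decay label is generally given where the stop lies more than 50 nt before the last junction, but not always. HNRNPA2B1-209 is labelled protein-coding although its last junction lies 134 nt after its stop. The label describes structure and not measured decay.

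**Figure D1:**
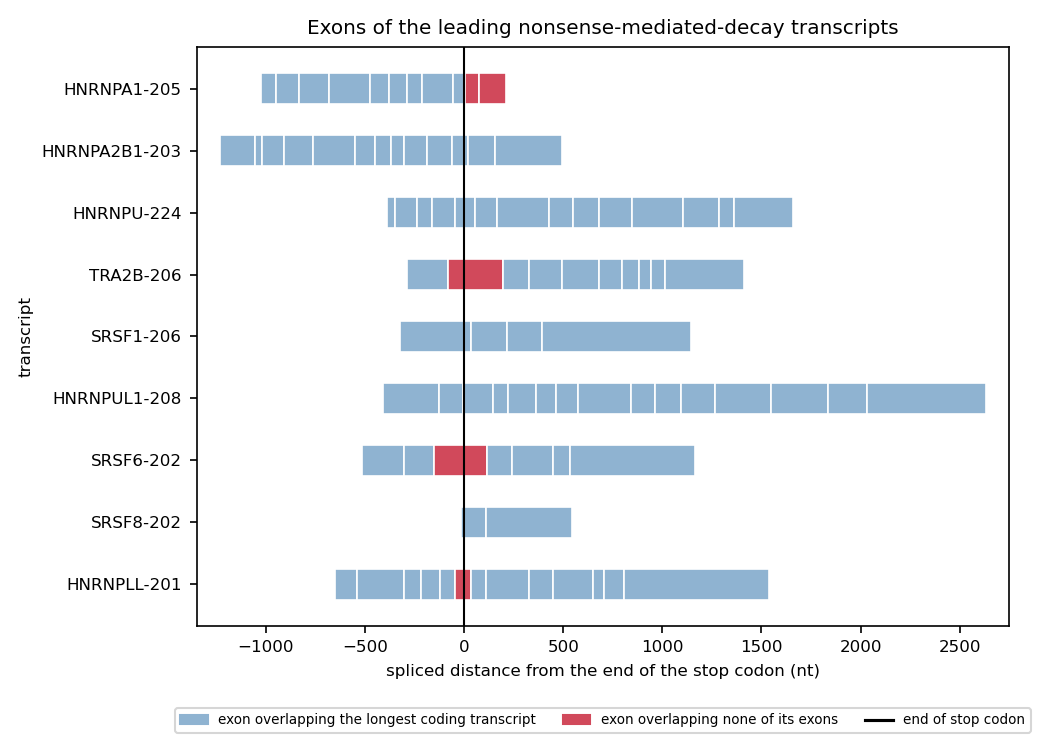
Exons of the 9 nonsense-mediated-decay transcripts with at least 10% of their gene's TPM in both libraries, drawn to scale in spliced nucleotides from the end of the stop codon (black line); white gaps are exon junctions, and red exons overlap no exon of the gene's longest coding transcript. The stop lies inside a red exon in TRA2B-206, SRSF6-202 and HNRNPLL-201, and before 2 red exons in HNRNPA1-205.

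Of the 43 genes, 38 were detected at 1 CPM (read counts scaled to the library's total in genes) or more in both libraries, and 29 of them reached 100 CPM in both. Over all protein-coding genes of the table, 61.7% were detected by the same rule, and over all genes 21.7%. The 5 others, HNRNPA1L2 and HNRNPCL1 to HNRNPCL4, were without any read, and the limit for a count of 0 (3 reads, counting error only) is 0.124 CPM for replicate 1 and 0.135 for replicate 2. They are copies related to HNRNPA1 and HNRNPC. Together the 43 genes took 439850 reads, 1.82% of the 24137664 reads in genes of replicate 1, and 378879 reads, 1.71% of the 22198929 reads of replicate 2. The 2 libraries thus lay further apart than the 95% Wilson intervals, which spanned 1.82 to 1.83% and 1.70 to 1.71%. HNRNP genes took 1.40% and 1.30% of reads, SRSF genes 0.277% and 0.272%, PTBP genes 0.0990% and 0.0919%, and TRA2 genes 0.0413% and 0.0412%.

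The labelled line was checked against its markers. All 7 seminoma and germ cell markers were detected, from 67.9 CPM for KIT to 1906 CPM for POU5F1 as means, while SOX2, which embryonal carcinoma expresses, was at 0.994 and 1.08 CPM. Of the other embryonal carcinoma markers, DNMT3B was at 124 and 98.4 CPM and TDGF1 at 127 and 120 CPM. Of 4 neural markers, 2 were detected, and the mean of the highest was 3.29 CPM. The tables disagree on 1 of them: TUBB3 had 0.746 and 0.496 CPM but 131 and 125 TPM, so its level is uncertain. The 3 markers of testis somatic cells were detected at means of 5.91 to 39.1 CPM. DDX53 was at 6.05 CPM in replicate 1 and 6.62 CPM in replicate 2, and without a control library its construct and its endogenous copy cannot be told apart.

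Among the core hnRNPs, HNRNPA1, a repressor that also moves between nucleus and cytoplasm, stood at 3234 CPM in replicate 1 and 2860 CPM in replicate 2, rank 10 among all genes. It alone took 17.7% and 16.8% of the reads of the whole set. HNRNPA2B1, its closest large relative, had 1529 and 1404 CPM, and HNRNPU, which binds chromatin-associated RNA, had 1263 and 1133 CPM. HNRNPK, a KH-domain protein that binds cytosine-rich RNA, and HNRNPC, which binds uridine tracts and forms a tetramer on nascent RNA, had 1155 and 1093 CPM and 1067 and 1003 CPM. All 5 were higher in replicate 1.

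On the per-length scale, where genes can be ordered, HNRNPA1 led with 2644 ± 213 TPM (SD, n = 2), followed by HNRNPC with 1060 ± 64.3 TPM. HNRNPA2B1 (703 and 616 TPM) and HNRNPAB (647 and 617 TPM) overlapped. Then came HNRNPD, which binds AU-rich elements, at 492 and 475 TPM, overlapping the next gene. HNRNPU with 476 and 432 TPM and HNRNPK with 454 and 439 TPM could not be ordered, since the HNRNPK values lay between those of HNRNPU. HNRNPH1, HNRNPL and HNRNPF, with means of 383, 364 and 360 TPM, were likewise not separated beyond their spread. The lowest detected member of the family was HNRNPA1L3, an HNRNPA1 copy, with 6.88 and 6.47 TPM.

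Among the SRSF genes, all below HNRNPA2B1 on the per-length scale, SRSF3 and SRSF2 led. SRSF3, the smallest SR protein and a factor in both splicing and export, had 568 and 505 TPM, and SRSF2, which binds enhancers of varied sequence, had 442 and 428 TPM. SRSF9 (341 and 340 TPM) and SRSF7 (337 and 320 TPM) did not overlap, but their means differed by about the SD of SRSF7, 11.9 TPM. SRSF5 (269 and 265 TPM) and SRSF1 (269 and 239 TPM), the founding SR protein, overlapped. SRSF10, which acts as a repressor when dephosphorylated, had 149 ± 11.9 TPM, SRSF6 124 ± 0.584 TPM, SRSF11 57.4 ± 5.67 TPM, SRSF4 52.9 ± 2.59 TPM and SRSF8 37.4 ± 2.0 TPM. SRSF12 was at the bottom with 1.64 and 1.82 TPM, from 61 and 81 reads.

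The TRA2 proteins bind GAA-rich exonic enhancers. TRA2B had 290 and 276 TPM and TRA2A 89.5 and 88.3 TPM, and the libraries of the 2 genes did not overlap. In the PTBP family the 3 paralogs were far apart: PTBP1, the form of most non-neural cells, had 370 and 353 TPM. PTBP3 had 33.4 and 28.8 TPM. PTBP2, the form known from neurons and testis, had 3.27 and 5.03 TPM and 294 and 235 reads.

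**Figure D2:**
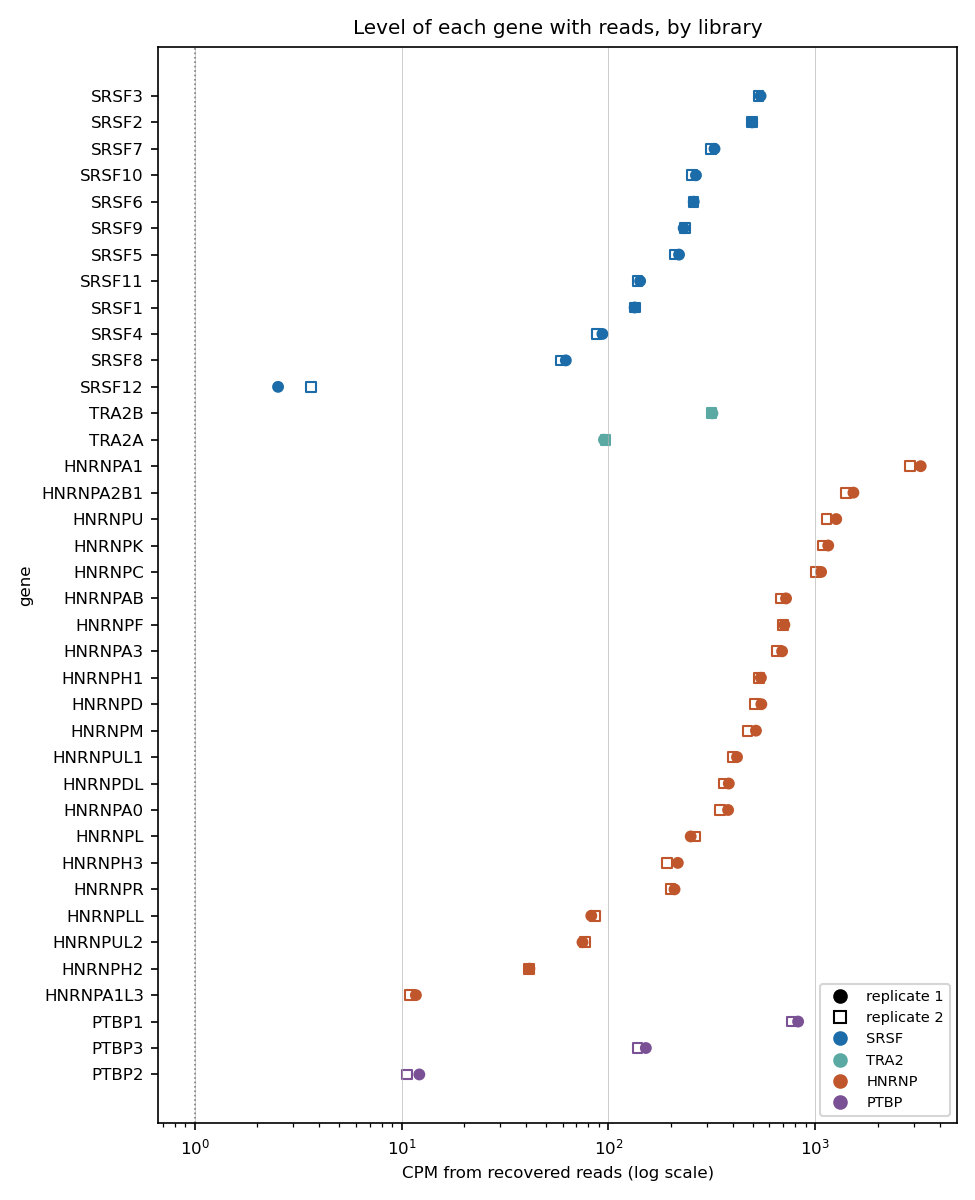
CPM from recovered reads of the 38 genes with a read, on a log axis, by gene family; filled circles are replicate 1, open squares replicate 2, and the dotted line is the detection threshold of 1 CPM. SRSF12 shows the widest gap, from 2.53 to 3.65 CPM, and 29 genes sit at or above 100 CPM in both.

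Reads and TPM can be compared through transcript length, and 0 of the detected genes were over 4-fold off the reads predicted from their TPM. HNRNPA3 had more reads than predicted (log2 ratio 1.87 in both libraries), so its 157 and 134 TPM and its place in the order are uncertain. HNRNPK (0.86 and 0.79), HNRNPA1L3 (0.69 and 0.68), SRSF11 (0.45 and 0.64) and PTBP2 (1.02 and 0.24) also had more, which makes their TPM less certain too. SRSF1 (-1.68 and -1.53), HNRNPUL2 (-1.36 and -1.27) and HNRNPL (-0.88 and -0.83) had fewer. These 3 are among the 4 genes of the set that overlap another protein-coding gene on the same strand in GENCODE 29 (the fourth is HNRNPH2, at -0.15 and -0.14), and the part of this overlap in their counts was not tested. A further 7 genes overlap a protein-coding gene on the opposite strand, HNRNPA2B1, HNRNPU, SRSF2 and HNRNPUL1 among them. The kit marks strand, but whether the counting used it is not given in the sources used here. The 123 annotated pseudogenes with matching symbols held 327 and 297 reads in all, led by HNRNPA1P7 with 94 and 80, against 78056 and 63496 for HNRNPA1. How reads that match several copies were counted is likewise not given.

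Splicing into decay and retained-intron forms was then described gene by gene. Of the 33 genes with more than 1 annotated transcript and at least 10 TPM in both libraries, 16 (48.5%) had at least 10% of their TPM in such transcripts in both libraries. Over all 7037 genes that pass this filter, 20.5% did, and over protein-coding genes that have such a transcript annotated, 27.5% did, against 53.3% of the 30 splicing-factor genes with one. The median share was 7.55% in replicate 1 and 7.55% in replicate 2, beside 1.22% and 1.21% over all genes. The splicing-factor genes also have more annotated transcripts, with a median of 12 a gene against 9 for protein-coding genes and of 4 against 2 in these classes, and the part of annotation depth in the difference was not tested.

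The classes differed in how far they stood above the level of all genes. Summed over the 43 genes, decay transcripts held 16.6% and 15.5% of TPM, against 2.45% and 2.40% over all genes. HNRNPA1-205 alone carried 54.0% and 50.8% of that decay TPM, and over the 42 genes without HNRNPA1 the share was 9.78% and 9.67%. Retained-intron transcripts held 5.10% and 4.77%, against 3.88% and 3.78%. At least 10% in decay transcripts alone was reached in both libraries by 10 of the 33 genes (all genes, 9.92%), and at least 10% in retained-intron transcripts alone by 4 (all genes, 10.4%). By family, the 10% line for both classes together was passed by 7 of 11 SRSF genes, both TRA2 genes, 7 of 18 HNRNP genes and 0 of 2 PTBP genes, of which PTBP3 has no such transcript in the table. The difference between families was not tested.

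**Figure D3:**
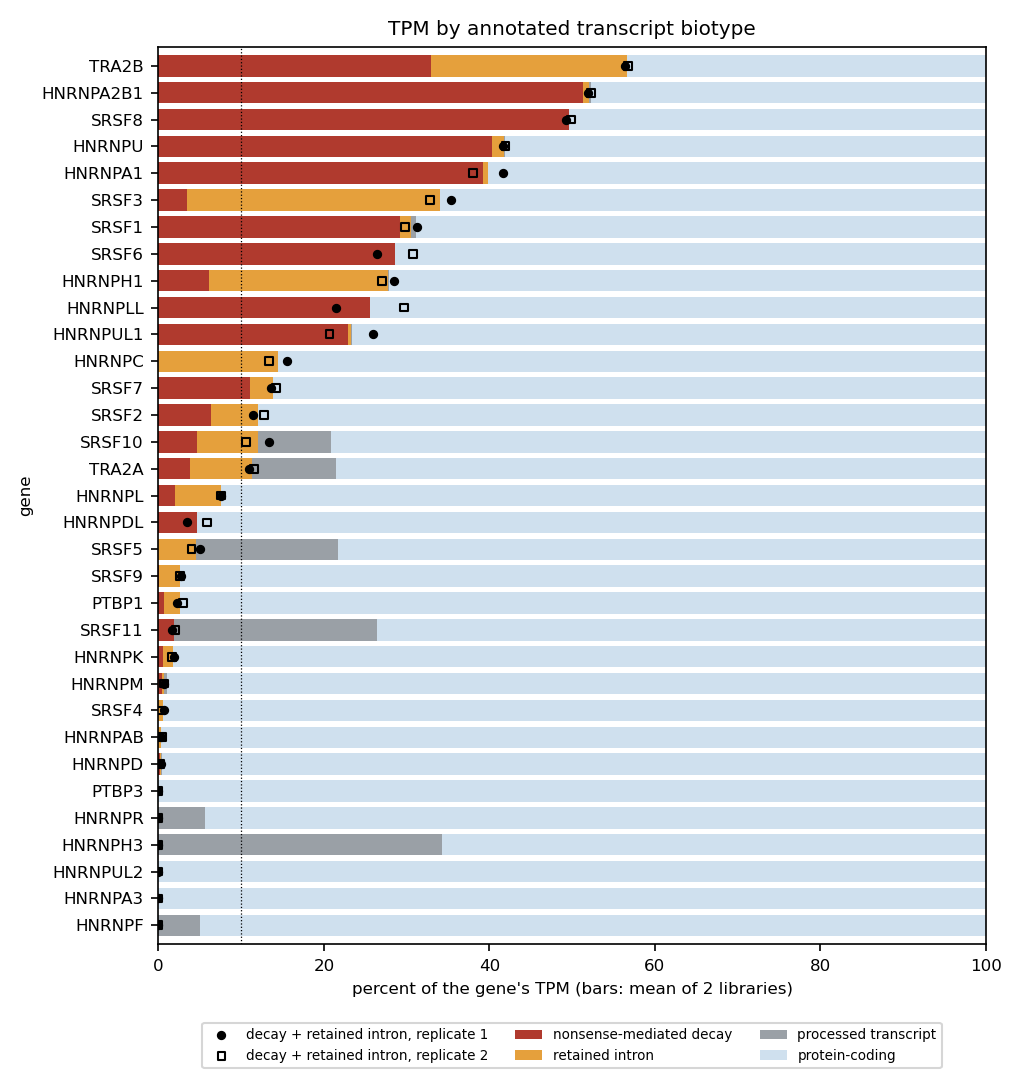
Percent of each gene's TPM by annotated transcript biotype for the 33 genes that pass the filter, as the mean of 2 libraries (bars), with the summed decay and retained-intron share of each library as points and a dotted line at 10%. TRA2B, HNRNPA2B1 and SRSF8 lie near or above 50%, while 10 genes lie below 1%.

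TRA2B had the highest summed share, 56.4% in replicate 1 and 56.8% in replicate 2, made up of 32.0% and 33.9% in decay transcripts and 24.4% and 22.9% in retained-intron transcripts. The poison-exon transcript TRA2B-206 was the gene's most abundant, at 92.8 and 93.5 TPM. TRA2B-205, the coding transcript of 288 residues that spans the whole reading frame, had 12.1 and 13.2 TPM, 4.18% and 4.8% of the gene. Larger parts fell on shorter coding models of 126 residues (TRA2B-201, 18.1% and 19.2%) and 188 residues (TRA2B-203, 19.7% and 16.4%). The retained-intron transcript TRA2B-213 had 35.6 and 28.8 TPM. Its paralog TRA2A was just over the line, at 10.9% and 11.6%, with its coding transcript TRA2A-201 at 70.0% and 64.0%.

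Among the SRSF genes, SRSF8 had 49.3% and 49.8% of its TPM in SRSF8-202, a 560-nt model of 2 exons that has no annotated start codon and shares its stop with SRSF8-201. SRSF3 had 35.3% and 32.8%, mostly in retained-intron transcripts: the 544-nt SRSF3-206 held 130 and 101 TPM. The decay transcript SRSF3-203 had only 3.41% and 2.84%. SRSF1 had 31.2% and 29.8%, of which SRSF1-206 held 66.9 and 57.2 TPM. In SRSF6 the poison-exon transcript SRSF6-202 had 32.6 and 38.3 TPM, 26.4% and 30.7% of the gene, and the coding SRSF6-201 held all the rest. It was the only decay transcript of SRSF6 in the table. SRSF7 (13.6% and 14.2%), SRSF10 (13.4% and 10.6%) and SRSF2 (11.4% and 12.7%) lay just above the line without any single such transcript at 10%. SRSF5 (5.03% and 4.0%), SRSF9 (2.67% and 2.60%), SRSF11 (1.69% and 2.05%) and SRSF4 (0.709% and 0.314%) lay below it. SRSF11 and SRSF5 had 24.5% and 17.2% of TPM, as means, in transcripts annotated as processed transcripts, a noncoding class not counted here.

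Among the HNRNP genes, HNRNPA2B1 had 51.9% and 52.3%, and almost all of it was HNRNPA2B1-203 with 362 and 315 TPM. That transcript includes the 36-nt exon at chr7:26197831-26197866, which distinguishes the B1 from the A2 protein. The other abundant transcript, HNRNPA2B1-209, a coding model of 261 residues, had 337 and 293 TPM. The coding HNRNPA2B1-201, also of 353 residues and with the same stop as HNRNPA2B1-203, had 0 TPM in both libraries. The coding models of 341 residues had 0 TPM in both (HNRNPA2B1-202) or 0 and 0.142 TPM (HNRNPA2B1-208). How far reads of these coding forms were assigned to HNRNPA2B1-203 was not tested. HNRNPA1 had 41.6% and 38.0%: HNRNPA1-205 stood at 1147 and 931 TPM and the coding HNRNPA1-201 at 1526 and 1351 TPM. They encode 320 and 307 residues. The coding HNRNPA1-203, also of 320 residues, had 0 and 0.064 TPM, and the longest coding transcript, HNRNPA1-202 of 372 residues, had 15.9 and 12.9 TPM. How far reads of coding forms were assigned to HNRNPA1-205 was not tested. HNRNPU had 41.6% and 41.9%, led by HNRNPU-224 with 177 and 157 TPM, a model without an annotated start whose stop lies 1360 nt before the last junction.

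HNRNPH1, which binds G-rich tracts, had 28.4% and 27.0%, of which 5.24% and 6.94% was in decay transcripts and 23.2% and 20.1% in retained-intron transcripts, with no single transcript of either class at 10% of the gene. HNRNPLL, a regulator of CD45 splicing in T cells, moved most between the libraries, with 21.5% and 29.7%. All of this was in the poison-exon transcript HNRNPLL-201 at 10.4 and 14.6 TPM, a model without an annotated start. HNRNPUL1 had 25.9% and 20.7%, led by HNRNPUL1-208, whose stop falls 6 bases into the exon at chr19:41272082-41272235 on the plus strand. HNRNPC had 15.5% and 13.3%, nearly all in HNRNPC-207, a retained-intron model of 604 nt with 162 and 127 TPM.

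The other 17 genes were below the line. HNRNPL, known to regulate its own transcripts and those of HNRNPLL, had 7.55% and 7.55%, and HNRNPDL, whose messages carry decay-linked introns after the stop, had 3.50% and 5.83%. PTBP1, whose skipped exon leads to decay in other systems, had 2.27% and 2.92%. HNRNPK had 1.86% and 1.68%. No TPM fell on these classes in either library for HNRNPF, HNRNPA3, HNRNPH3, HNRNPR, HNRNPUL2 or PTBP3, although HNRNPH3 had 34.2% as a mean in processed transcripts. For HNRNPF, HNRNPH3 and PTBP3 this is fixed by the annotation, which holds no such transcript of theirs in the table, while HNRNPA3, HNRNPR and HNRNPUL2 have 1 each. The median difference of the share between libraries was 0.403 percentage points over the 33 genes and 0.458 over all genes.

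The shares rest on salmon's division of reads between overlapping models. Where each transcript was weighted by its length, 13 of the 16 genes stayed above 10%, and HNRNPC, SRSF2 and TRA2A did not. SRSF6 then had 13.5%, SRSF1 16.8%, HNRNPA2B1 34.9% and HNRNPU 30.8%, and SRSF8 lay just above the line. With transcripts of annotation support level 1 or 2 alone, 10 of the 16 stayed. HNRNPU (0.313%), HNRNPC, SRSF1 (1.91%), SRSF2 (5.70%), SRSF10 (7.57%) and TRA2A (7.80%) did not. In SRSF2, SRSF10 and TRA2A no single decay or retained-intron transcript had reached 10% of the gene. For the other lost genes, HNRNPU-224, HNRNPC-207 and SRSF1-206 are removed, since they have support level 5. TRA2B-206 has that level too and is removed, and the 51.2% that TRA2B keeps lies in its other transcripts. The shares of HNRNPA1 (87.4%), SRSF3 (67.9%) and SRSF8 (100%) were higher there, since the setting removes HNRNPA1-201, SRSF3-208 and SRSF8-201, their leading coding transcripts. HNRNPA2B1 then had 77.5% of what little TPM was left, with both of its abundant transcripts removed.

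Coding isoforms of known function were read in the same way. PTBP1-203 (557 residues) held 41.8 ± 1.56% of the gene's TPM and PTBP1-201 (531 residues) 39.3 ± 0.417% (SD, n = 2). They differ by the 78-nt exon at chr19:805492-805569 on the plus strand, known as exon 9, whose inclusion strengthens repression by the protein. HNRNPC-227 (293 residues) held 34.2 ± 0.741% and HNRNPC-211 (306 residues) 25.6 ± 0.345%, which have the lengths of the C1 and C2 proteins and differ by 13 residues at the end of 1 exon. Summed over all coding transcripts of the same length, 293 residues held 38.9% and 37.9% and 306 residues 36.7% and 37.5%, so the 2 lengths were nearly level in both libraries. HNRNPAB-202 (332 residues) held 67.6 ± 1.83% and HNRNPAB-201 (285 residues) 25.6 ± 2.91%, with the 141-nt exon at chr5:178210132-178210272 in the longer form. HNRNPM-201 (730 residues) and HNRNPM-202 (691 residues) held 45.3 ± 0.670% and 38.2 ± 0.154%. Of the paired single transcripts, the longer led in PTBP1, HNRNPAB and HNRNPM.

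Read counts of the replicates were compared with edgeR's exact binomial test, Benjamini-Hochberg adjusted over 15299 genes. It compares the libraries and no conditions, and it models counting error only, so a small p says nothing of the spread between further libraries. Of 38 genes tested, 16 (42.1%) differed, against 13.1% of all genes tested. Among those at 100 CPM or more, where small differences pass, 55.2% differed, against 37.9% of all genes at that level. The direction was uneven: 15 were lower in replicate 2 and 1 was higher, while over all genes 6.35% were lower and 6.78% higher. At 100 CPM or more, 15 of 29 were lower, against 17.4% of all genes at that level. The median log2 difference was -0.07 over the 38 genes and -0.01 over all genes tested.

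The lower genes were 13 of 21 HNRNP and 2 of 3 PTBP genes. None of the 12 SRSF and 2 TRA2 genes passed in edgeR's test, with 2 SRSF and 0 TRA2 genes at an unadjusted p under 0.05. By CPM alone, 9 of the 12 SRSF genes and 18 of the 21 HNRNP genes were lower in replicate 2. The median log2 differences were -0.04 for SRSF and -0.08 for HNRNP genes. With DESeq2 size factors and with all genes that have a read, 13 HNRNP genes were again lower and 0 SRSF genes passed. Whether the families differ was not tested. HNRNPA1 was lowest among the called genes, at a log2 difference of -0.18 (edgeR adjusted p = 7.93e-104), then HNRNPH3 at -0.17 (adjusted p = 2.19e-06) and HNRNPU at -0.16 (adjusted p = 4.81e-31). PTBP3 was at -0.13 and PTBP1 at -0.10. HNRNPL was the gene that was higher, at 0.07 (edgeR adjusted p = 0.0275), but its call is lost when all genes that have a read are tested (edgeR adjusted p = 0.0609). Only SRSF12, with 61 and 81 reads and not called, differed by at least 0.25 on the log2 scale, so all the called differences were smaller than that.

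**Figure D4:**
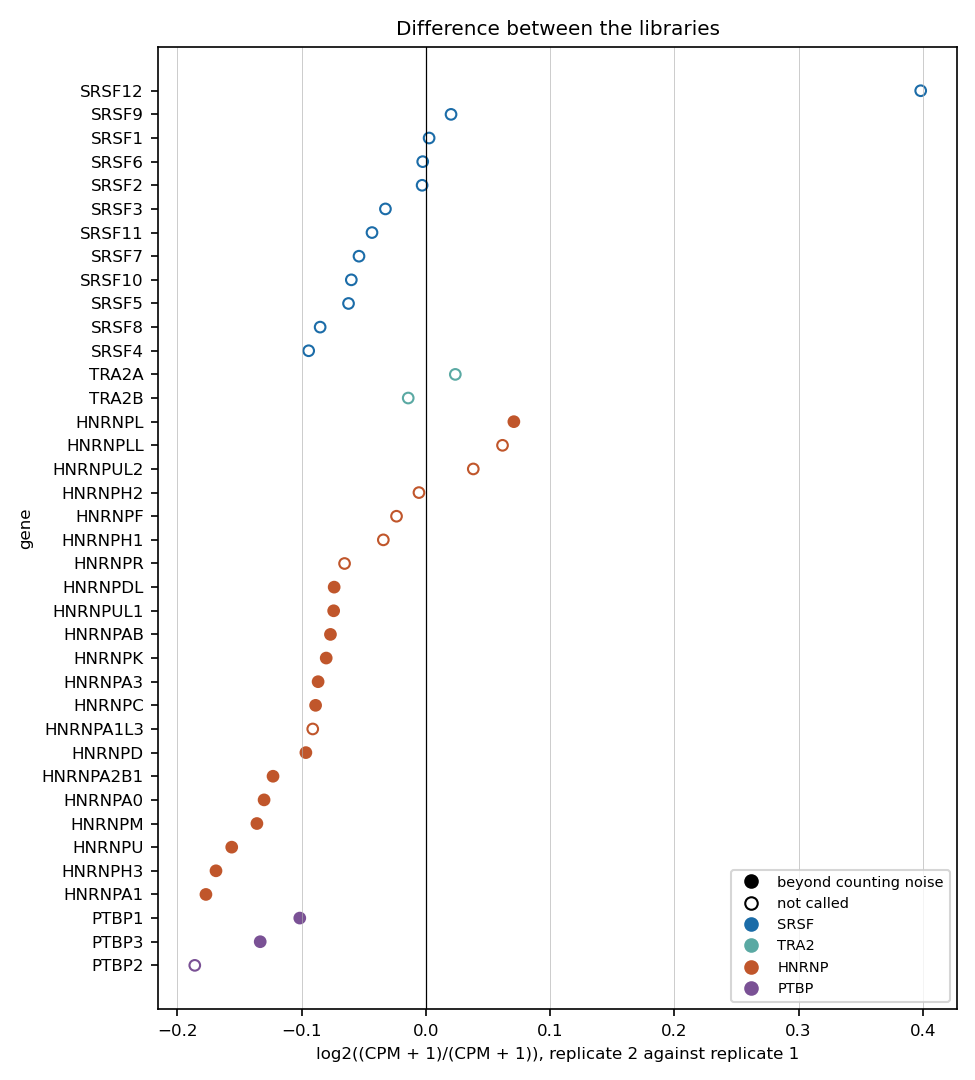
Difference between the libraries for the 38 genes tested, as log2((CPM + 1)/(CPM + 1)) of replicate 2 against replicate 1, by family; filled points passed the exact binomial test. Filled points among HNRNP and PTBP genes lie between -0.18 and -0.07 except HNRNPL at 0.07, and no SRSF or TRA2 point is filled.

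Genes that act on or beside these factors were detected with few exceptions. Of 10 kinases and import receptors, 9 were detected, from 6.43 CPM for CLK4 to 233 CPM for TNPO1 as means, and SRPK3 had 1 read. Among the 8 that pass the filter for shares, 3 were over the 10% line: PRPF4B with 82.9% and 71.7%, CLK1, a kinase known to hold back its own mRNA with retained introns, with 74.2% and 75.0% (42.9% and 44.8% in decay and 31.3% and 30.2% in retained-intron transcripts), and CLK3 with 34.9% and 33.6%. All 8 early spliceosome genes were detected, and SF3B1 (23.5% and 20.5%) and SRRM2 (35.2% and 35.4%) were over the line. Of 10 decay factors, all were detected and 1 of 7, SMG9, passed, with 59.1% and 57.0%. Of 6 hnRNP relatives outside the symbol rule, 5 were detected and 0 of 4 passed. Over all genes that pass the filter, 20.5% were over the line, and 27.5% of protein-coding genes with such a transcript annotated. Whether any of these lists differs from that was not tested.

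Of 16 tissue-restricted regulators, 14 were detected. ESRP1, an epithelial regulator, was the highest with 251 and 252 CPM, and NOVA1, a neuronal one, the lowest with 0.124 and 0.135 CPM. These extremes do not sort the list by tissue. Only NOVA1 and SRRM4 (1.20 and 0.631 CPM) were not detected. RBFOX1 had 24.3 and 27.3 CPM and ELAVL3 4.76 and 3.42 CPM, and NOVA2, ELAVL4 and RBFOX3 were detected too. In this list ESRP2 (19.2% and 20.6%) and QKI (60.6% and 75.1%) were over the line among 5 genes that pass the filter, beside 20.5% of all genes. Between the libraries, the binomial test called 1 of 9 kinases and import receptors, 4 of 8 early spliceosome genes, 3 of 10 decay factors and 1 of 15 tissue-restricted regulators tested, against 13.1% of all genes tested and 37.9% of those at 100 CPM or more. All of these calls were lower in replicate 2, where 6.35% of all genes were.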

How the data were processed

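RNA of 2 libraries of 1 group was used. Per the submitters' processing notes, Trim Galore 0.6.10, STAR 2.7.11a, Salmon 1.10.2 and DESeq2 were named with the builds GRCh38 and hg38; which annotation release was used is not given in the sources used here. The authors deposited TPM for 251955 transcripts. The deposited gene table is named as CPM, but its signal holds gene counts that were each divided by a constant of their library: 100% of values above 0 were whole multiples of the value of 1 read (1.02 and 1.12, tolerance 0.001), so whole reads were recovered. They summed to 24137664 and 22198929. In both headers the library names stand without a name for the identifier column, and 0 columns of values were left unused.

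CPM were computed from these reads. Transcripts were joined by identifier without version to GENCODE 29 on GRCh38, which held 201667 of them and 94.8% of TPM in each library; the others have no gene here, and transcripts of newer models are missing from a gene's TPM. A share is the TPM of transcripts with the biotype nonsense_mediated_decay or retained_intron over all TPM of the gene, in genes with more than 1 transcript and at least 10 TPM in both libraries, called at 10% in both. The depth per transcript is unknown, so shares carry no interval. Wilson intervals and the limit of 3 reads cover counting error only. The libraries were compared with edgeR 4.0.16 (binomTest, TMM, filterByExpr, Benjamini-Hochberg, threshold 0.05). It was tested on simulated data for replicate 2 against replicate 1: of 15406 genes, 200 were changed 2-fold, 94.5% of these were called, and 8 unchanged genes were called. The simulated counts held counting noise only. Every difference called among the splicing-factor genes was smaller than 2-fold, so these rates do not apply to those calls. Log2 differences used a pseudocount of 1, which understates the change of low genes. Alternatives were DESeq2 1.42.0 size factors, other filters, thresholds and denominators, and leaving out each library.

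All members were described, in full those at 100 CPM or more, undetected, at 10% in the share or apart between the libraries, with each decay or retained-intron transcript at 10% in both. The members and lists were chosen with earlier results of these data known. Protein sequences were not used here. The test between libraries is not reported here for the hnRNP relatives outside the symbol rule.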

Additional observations from a re-analysis of the deposited data

How the results depend on the processing

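Leaving out each library in turn gave 38 to 38 genes detected, 1.71 to 1.82% of reads, a median share of 7.55 to 7.55% and 16 to 16 genes over the 10% line. By TPM summed per gene, the set took 1.30% of the total in place of 1.76% of reads. The median share was 6.56% with transcripts weighted by length, 2.28% with support level 1 or 2 alone and 6.49% at a minimum of 50 TPM. The count of genes over the line was 16; it was 10 with support level 1 or 2 and 9 at a line of 25%, and between 13 and 17 under the other settings. The count of genes apart between the libraries was 16, or 1 where a log2 difference of at least 0.25 was asked for, with a pseudocount of 1 or of 0.1 (SRSF12 in place of any called gene). It was 16 with DESeq2 size factors and 15 with no filter on low counts. No paired analysis was possible because only 1 group exists. With 2 libraries, an SD rests on 1 difference. Transcript shares depend on short or 5′-truncated models of low support, and genes under 10 TPM, such as SRSF12 and PTBP2, gave none.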
